A study of Homo sapiens with 6 samples.

Results

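The replication-dependent histone genes were taken from the count table by their gene names: H1-1 to H1-5, and every name made of H2A, H2B, H3 or H4, the letter C and a number. Of the 62703 rows, 68 had such a name, and the 47 rows whose counts summed to at least 10 over the 6 libraries were kept as members. The members were thus chosen by their summed count, and levels among them are given as a description. MED12, a Mediator subunit that activates the CDK8 kinase, was knocked down in 22Rv1 cells, an established prostate cancer cell line that does not respond to enzalutamide, and poly(A) RNA was sequenced. All 6 libraries came from this 1 line, and 3 were transfected with siCtrl, a non-targeting siRNA pool, and 3 with siMED12, a pool directed at MED12. Each transfection used 25 pmol of siRNA 24 h after seeding, with a change of medium at 6 h and harvest on day 3. The question addressed here is how the level of these histone genes in siMED12 libraries compared with that in siCtrl libraries, given that poly(A) selection was used.

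Replication-dependent histone genes code for the core histones H2A, H2B, H3 and H4, which form the nucleosome, and for the linker histones H1, which bind the DNA between nucleosomes. Dividing cells transcribe them mainly in S phase, when new DNA has to be packaged, and most lie in gene clusters that are transcribed together at a nuclear body organised by NPAT. Their mRNAs mostly have no introns and no poly(A) tail: they end at a stem-loop that is bound by SLBP and cut with the help of the U7 snRNP. Longer, polyadenylated transcripts of some of these genes also exist, as in differentiated cells or when stem-loop processing fails, and only RNA with a poly(A) stretch is captured well by poly(A) selection. A count in these libraries is therefore not a measure of all histone mRNA in the cells, and fewer cells in S phase, less RNA per cell and a different share of polyadenylated RNA cannot be told apart in bulk samples.

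The stem-loop was searched because it is the feature that sets these mRNAs apart from polyadenylated ones. The pattern was GG, any 2 bases, CTT, any base, T, any base, AG, any 2 bases and CC. On the coding strand and within 150 bases after the last coding base, it was found in all 68 rows and in 77 of 20033 protein-coding genes of the GRCh38 genome (0.384%). The 9 others were the histone genes H2AX, H1-6, H3-4 and H3-7, and ADGRG3, CORO7, COX19, TIPARP and UGP2, which are not histone genes. Of the 47 members, 28 carried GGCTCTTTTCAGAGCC, 7 carried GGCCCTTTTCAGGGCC, 5 carried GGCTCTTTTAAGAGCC and 3 carried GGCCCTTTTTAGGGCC, and each of the other four had letters of its own. The sites of the members on which the results turn are given 5′ to 3′ on the coding strand, in GRCh38 coordinates, with the 16 bases of the stem-loop in capitals and 5 bases on each side in lower case.
H3C6 (chr6:26225591-26225616, plus strand): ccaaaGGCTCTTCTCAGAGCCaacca
H2AC6 (chr6:26124664-26124689, plus strand): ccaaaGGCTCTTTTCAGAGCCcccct
H3C10 (chr6:27810511-27810536, plus strand): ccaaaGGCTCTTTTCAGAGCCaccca
H2BC12 (chr6:27146361-27146386, minus strand): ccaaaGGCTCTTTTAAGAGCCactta
H2BC21 (chr1:149886183-149886208, minus strand): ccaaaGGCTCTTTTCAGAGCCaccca
H2AC25 (chr1:228457364-228457389, minus strand): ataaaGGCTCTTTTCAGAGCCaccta
H1-2 (chr6:26055739-26055764, minus strand): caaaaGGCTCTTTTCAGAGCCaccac
H4C14 (chr1:149833027-149833052, plus strand): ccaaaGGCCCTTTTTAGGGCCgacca
The 16 letters of H3C6, the tested member with the largest log2 fold change, were found in no other member. Their central letters CTTCTCAG also occurred in H4C13, a row at 0 in all 6 libraries. Whether these letters bear on the level was not tested. H2AC6 and H3C10 were called higher in siMED12 in the fit below that uses the replicate number, and not in the fit without it. They carried the same 16 letters as H2BC21, H2AC25 and H1-2, which were called in neither fit.

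Libraries held 16136699 to 17012788 counts. MED12 was measured at 67.8, 77.7 and 72.6 CPM (counts per 1000000, with library sizes scaled by TMM) in siCtrl replicates 1 to 3 and at 23.9, 15.0 and 30.1 CPM in siMED12 replicates 1 to 3, and the groups did not overlap. Its log2 fold change was -1.66 (SE 0.23, edgeR quasi-likelihood test, adjusted p = 0.0314), and this call was lost in 4 of the 6 fits that left out 1 library. All 9 luminal epithelial markers were detected, with summed levels of 3330 to 3617 CPM in siCtrl and 2791 to 3091 CPM in siMED12. Of 10 markers of blood, endothelial, stromal and muscle cells, 2 were at 0 in every library and 4 passed the expression filter, with summed levels of 28.5 to 40.9 CPM and 29.5 to 44.8 CPM. Libraries of the same replicate number resembled each other across genes, so that a second fit, in which the replicate number was a block, is given beside the first.

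The histone genes were a small part of these libraries. The 47 members together held 12217 counts, and their share of a library ran from 0.0114% (siCtrl replicate 1, 95% Wilson interval 0.0109% to 0.0120%) to 0.0139% (siMED12 replicate 2, 0.0134% to 0.0145%). These intervals cover counting error only. The 5 most abundant members held 54.7% of the members' counts, whereas 28 members had at most 100 counts over all 6 libraries. Only 3 members reached a mean of 10 CPM, namely H2AC25 at 18.8 CPM, H2BC21 at 16.6 CPM and H2BC12 at 14.0 CPM. Divided by the length of the merged exons, the order changed, and H2BC12 (28.3 CPM per kb), H2AC19 (15.4 CPM per kb) and H1-2 (13.3 CPM per kb) were the highest. At the other end, H3C12 was just inside the limit with 10 counts, H4C3, H3C11 and H2AC12 followed with 16 each, and H4C12 with 9 counts and H2BC3 with 8 counts were just outside it.

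Of the 21 rows below the limit, 8 had 1 to 9 counts and 13 were listed at 0 in all 6 libraries. A count of 0 allows up to 3 counts, which is 0.175 to 0.190 CPM depending on the library. On chromosome 6, 7 neighbouring histone rows in a stretch of 39201 bases (chr6:26234212-26273412) were at 0, namely H1-3, H4C6, H4C7, H3C7, H2BC9, H3C8 and H2BC10. They lay between H3C6 and H4C8, which were both expressed. The other rows at 0 were H1-1, H2AC1, H2BC1, H4C13, H3C4 and H2AC7. An unnamed gene on the same strand (ENSG00000282988) covered 96.6% of the exon bases of H3C4 and 85.3% of those of H2AC7, and how reads in such an overlap were assigned was not given in the sources used here.

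The members were split by where their transcripts end in the annotation (Gencode 44). For 17 of the 68 rows at least 1 transcript ran more than 100 bases beyond the stem-loop, and for the other 51 rows every transcript ended within 100 bases of it. Of the 17 rows, 16 were members, and all 16 passed edgeR's filter on low counts. The 51 rows included 31 members, of which 8 passed. The median level was 2.50 CPM in the 16 members with an extended end and 0.335 CPM in the 31 members without one. Per kb of exon, these medians were 1.51 and 0.738 CPM per kb. The 16 members with extended ends held 63.2% of the members' counts, on 36482 of the members' 52409 exon bases, and the 31 others held 36.8%. Summed per kb of exon the order was the reverse of that of the medians, with 2.14 CPM per kb for extended ends and 2.85 CPM per kb for the others. High levels also occurred without an annotated extension, since H2BC12, H1-2 and H2AC19 ended within 5 bases of the stem-loop. How much of these counts came from polyadenylated RNA and how much from stem-loop mRNA carried through the selection was not tested.

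**Figure D1:**
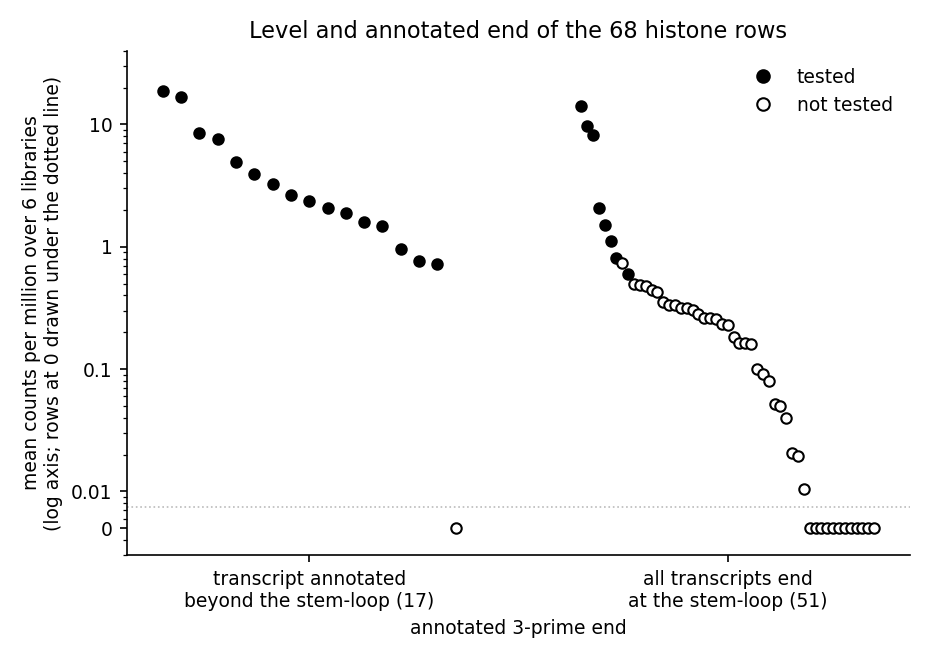
Mean level of the 68 histone rows in CPM over 6 libraries (vertical log axis, rows at 0 drawn below the dotted line), split by whether a transcript is annotated beyond the stem-loop (17 rows) or all end at it (51 rows). Filled circles were tested and open circles were not: every row with an extended end and counts was tested, and 12 of the 13 rows at 0 had no extended end.

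The counts of RNAs that carry no poly(A) tail are given as a description. How reads matching several places were counted was not given in the sources used here, so that a count of 0 may not mean absence. The amount of such RNA carried through the selection was not measured. Of 28 listed RNAs, 11 were at 0 in all libraries, among them RN7SK, RPPH1 and RNU7-1, the RNA of the U7 snRNP, and 3 passed the filter. Their summed level was 139, 214 and 45.5 CPM in siCtrl replicates 1 to 3 and 190, 205 and 39.6 CPM in siMED12 replicates 1 to 3. It was mostly RN7SL1, the RNA of the signal recognition particle, and it was low in both libraries numbered 3 and did not separate the groups. RMRP, the RNA of the RNase MRP complex, had a log2 fold change of 0.25 (adjusted p = 0.900), and RN7SL3, another 7SL RNA gene, had one of -0.47 (adjusted p = 0.796), both in edgeR's test without the block. RN7SL3 had pair differences of -14.4%, -27.9% and -60.1%, while RMRP and RN7SL1 were higher in 1 pair and lower in 2.

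Summed over all 47 members, the histone level differed little between the groups. It was 112.3, 129.2 and 118.9 CPM in siCtrl replicates 1 to 3 (120.1 ± 8.52, SD, n = 3) and 114.9, 138.7 and 127.0 CPM in siMED12 replicates 1 to 3 (126.9 ± 11.9, SD, n = 3). The mean of siMED12 was 5.61% higher, less than 1 SD of either group, and the groups overlapped. Within replicate numbers the sum was higher by 2.28%, 7.36% and 6.85%. No test was made on the sum, since its members were chosen with results of these data known. The 3 members with the clearest increases (H3C6, H2AC6 and H3C10) were picked after their values were seen, so that leaving them out lowers the difference by construction. The sum of the remaining 44 members differed by -1.31% with TMM. It differed by 1.54% with library size only and by -1.85% with DESeq2 size factors.

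The classes did not move together. H3 was the only class whose groups did not overlap: its 9 members summed to 7.38, 8.22 and 7.68 CPM in siCtrl replicates 1 to 3 and to 14.0, 12.7 and 9.51 CPM in siMED12 replicates 1 to 3, a mean 55.6% higher. H3C6 and H3C10 held this increase, because the 7 other H3 members summed to 1.37, 2.40 and 1.58 CPM under siCtrl and 2.61, 1.40 and 1.06 CPM under siMED12. H2A differed by 6.30%, H1 by 9.35% and H2B by 0.71%, all with overlapping groups. H4 differed by -8.11%, with pair differences of -31.6%, 3.16% and 5.35%, so that its sign rested on replicate 1.

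**Figure D2:**
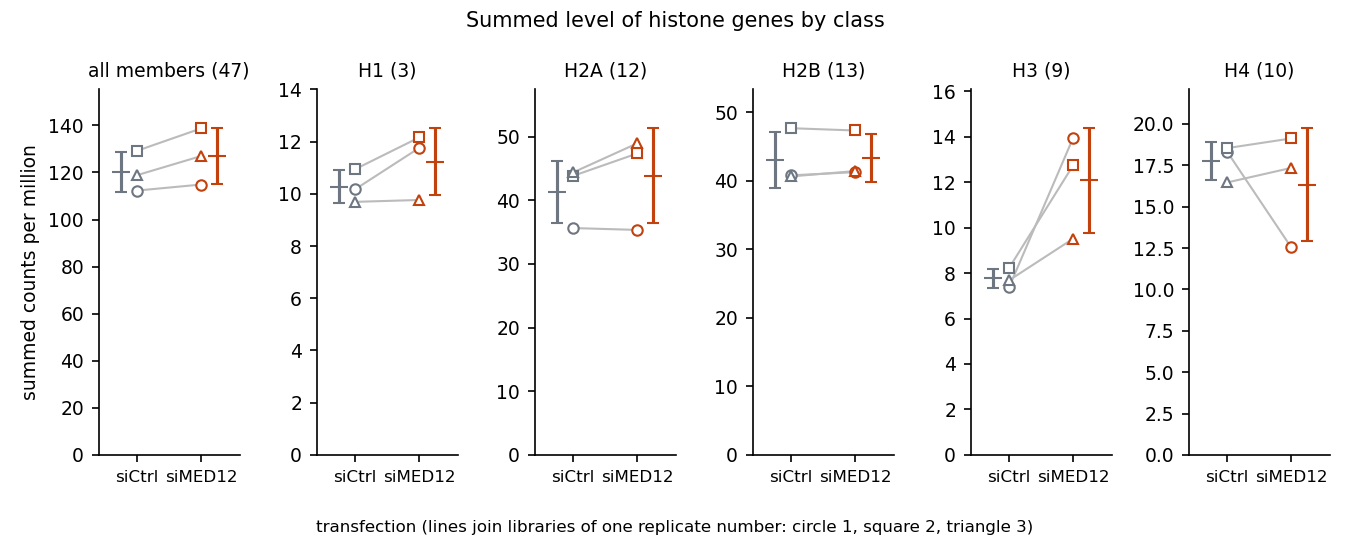
Summed CPM (vertical axes, from 0) of all 47 members and of each class per library, with grey lines joining libraries of the same replicate number and bars giving the mean ± SD of 3 libraries. The H3 panel is the only one in which all 3 siMED12 libraries (9.51 to 14.0 CPM) lie above all 3 siCtrl libraries (7.38 to 8.22 CPM).

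By location, the 35 members on chromosome 6 (6p22) summed to 58.3, 66.1 and 50.6 CPM with siCtrl and 64.4, 76.4 and 60.0 CPM with siMED12. This was a mean 14.7% higher, with pair differences of 10.4%, 15.6% and 18.5%, although the groups overlapped. H3C6, H2AC6 and H3C10 all lie there, and the sum of the remaining 32 members differed by 0.97%. The 9 members at 1q21 differed by 1.50%. H2AC25 and H2BC26 at 1q42 summed to 18.3, 22.5 and 25.3 CPM in siCtrl, against 13.8, 19.3 and 23.0 CPM in siMED12, with pair differences of -24.5%, -14.1% and -9.19%. H4C16, alone on chromosome 12 (12p12), differed by 41.6%, with 2.44 CPM in both libraries numbered 1.

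Of the 47 members, 24 passed the expression filter and were tested among 17901 genes. The other 23 held 10 to 74 counts each. Without the block no tested member was called at an adjusted p below 0.05, 1 had an unadjusted p below 0.05 in the direction of an increase (7.65% of all genes), and the lowest adjusted p was 0.128 (edgeR quasi-likelihood test). Of all genes tested, 0.151% were called higher and 0.413% lower in this fit. With a block for the replicate number, 3 members (H3C6, H2AC6 and H3C10) were called higher and none of the 24 was called lower in edgeR's test, where H4C8 and H2BC26 had an unadjusted p below 0.05 with negative fold changes. In that fit 17.1% of all genes were called higher and 16.2% lower, so that the members' count of calls was below this background. DESeq2's Wald test without the block called 1 member, H3C6, higher, beside 1.85% of all genes. A blocked fit on all 24212 genes with at least 10 counts took in all 47 members, called H3C6, H2AC6 and H3C10 higher (12.5% of all genes) and H2BC26 lower (11.9% of all genes), and called none of the other 23, whose SE was 0.54 to 1.49 on the log2 scale. A log2 fold change above its SE was not called either, as in H1-5 (-1.38, SE 0.98, adjusted p = 0.362, edgeR, same blocked fit). The smallest difference detectable in these members at this depth was not computed. The median log2 fold change of the tested members was 0.09 without and 0.10 with the block, against 0.02 over all genes in both fits. Fold changes were above 0 for 14 members and below 0 for 10 in the blocked fit. They were also less precise than those of other genes, with a median SE of 0.31 on the log2 scale (all genes 0.19) without and 0.28 (all genes 0.10) with the block. In 3 of the 24 tested members all siMED12 libraries were above all siCtrl libraries, and in none of the 24 were they all below. These patterns occurred in 11.2% and 10.9% of all genes tested. Of the members that were not tested, H3C12 (10 counts) had the first pattern and H1-5 (26 counts) the second.

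**Figure D3:**
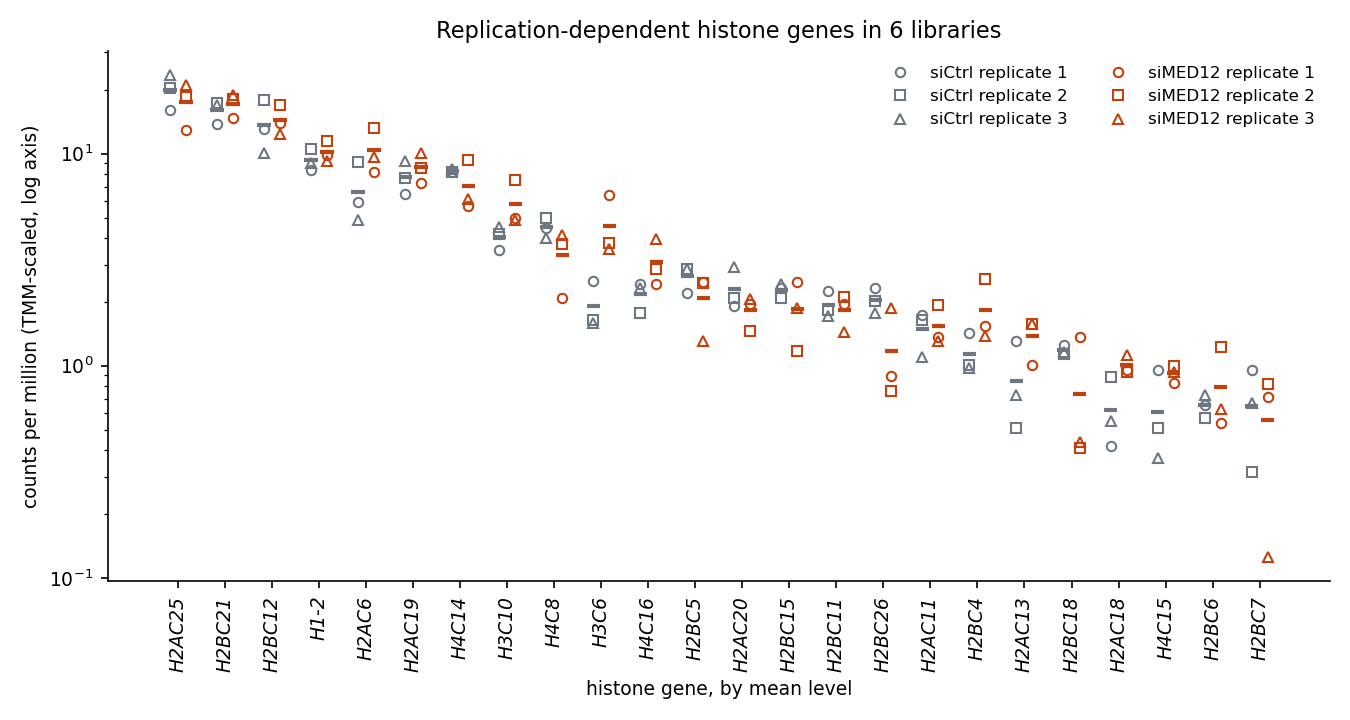
CPM (vertical log axis) of the 24 tested members in each library, ordered by mean level, with siCtrl in grey, siMED12 in orange, a symbol for each replicate number and short lines for group means. Points of the 2 groups are mixed for most genes, and the siMED12 points of H3C6, H3C10 and H2AC18 all lie above the siCtrl points.

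Among genes for histone H3, the tail of which carries many of the known chromatin marks, 2 of 9 members were tested. H3C6 (chr6:26224199-26227473, plus strand) was measured at 2.50, 1.64 and 1.58 CPM in siCtrl replicates 1 to 3 and at 6.36, 3.80 and 3.57 CPM in siMED12 replicates 1 to 3. The lowest siMED12 library was above the highest siCtrl library, with increases of 154%, 131% and 125% in pairs 1 to 3. The log2 fold change was 1.26 (SE 0.33, adjusted p = 0.128) without and 1.25 (SE 0.23, adjusted p = 4.05e-05) with the block. Adjusted p ran from 0.0274 to 0.374 over 13 alternatives without the block and from 1.83e-06 to 0.00616 over 7 with it. Its annotation spans 2679 exon bases and a transcript that ends 1862 bases beyond the stem-loop with an AATAAA in its last 50 bases.

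H3C10 (chr6:27810051-27811300, plus strand) was at 3.51, 4.17 and 4.51 CPM under siCtrl and at 4.99, 7.54 and 4.88 CPM under siMED12. The groups did not overlap, but the siMED12 libraries numbered 1 and 3 were close to the highest siCtrl library, and the increase within replicate 3 was 8.24%. The log2 fold change was 0.51 (SE 0.25, adjusted p = 0.378) without and 0.50 (SE 0.19, adjusted p = 0.0357) with the block. In the blocked fit the call was lost when replicate 1 or replicate 2 was left out, and adjusted p ran from 0.0111 to 0.414 over 7 blocked alternatives and from 0.326 to 0.770 over 13 without the block. The 7 other H3 members, with 10 to 42 counts, were not tested.

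The promoters of these genes are shown because the members called higher lie in the same large cluster and the annotation gives each its own start. RefSeq promoters on GRCh38.p14, from 250 bases before to 50 bases after a start, were matched to 42 of the 47 members (45 promoters). Capitals mark letters found on either strand: those of the CCAAT box (CCAAT), those of the TATA box (TATAAA) and those of the octamer (ATTTGCAT), a textbook element of H2B promoters.
H3C6 (chr6:26224885-26225184, plus strand): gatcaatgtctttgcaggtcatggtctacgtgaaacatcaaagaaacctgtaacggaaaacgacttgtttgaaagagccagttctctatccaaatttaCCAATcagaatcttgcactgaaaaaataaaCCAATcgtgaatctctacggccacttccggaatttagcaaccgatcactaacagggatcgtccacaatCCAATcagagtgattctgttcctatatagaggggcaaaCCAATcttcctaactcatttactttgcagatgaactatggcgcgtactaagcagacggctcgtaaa
H3C10 (chr6:27809801-27810100, plus strand): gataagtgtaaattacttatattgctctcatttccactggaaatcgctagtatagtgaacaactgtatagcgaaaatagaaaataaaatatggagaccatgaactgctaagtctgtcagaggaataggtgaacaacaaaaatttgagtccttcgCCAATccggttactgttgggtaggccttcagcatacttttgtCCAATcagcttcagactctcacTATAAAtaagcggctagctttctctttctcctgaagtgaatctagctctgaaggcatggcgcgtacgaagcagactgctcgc
H2AC6 (chr6:26123922-26124221, plus strand): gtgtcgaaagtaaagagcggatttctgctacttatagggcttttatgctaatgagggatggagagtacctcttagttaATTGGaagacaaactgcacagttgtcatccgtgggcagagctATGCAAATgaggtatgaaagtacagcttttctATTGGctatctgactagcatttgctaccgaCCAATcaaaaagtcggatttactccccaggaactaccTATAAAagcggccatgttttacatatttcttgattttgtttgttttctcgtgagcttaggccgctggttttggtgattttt
For H3C6 the later of 2 annotated starts is given, and the window of the earlier start (chr6:26223928-26224227) held 3 CCAAT boxes and 1 TATA box. The letters of the CCAAT box were in 84.4% of the 45 member promoters and in 34.6% of all 35116 promoters, those of the TATA box in 64.4% and 11.5%, and those of the octamer in 35.6% and 1.77%. The printed H3C6 window held 4 CCAAT boxes and neither of the other motifs, that of H3C10 held 2 CCAAT boxes and 1 TATA box, and that of H2AC6 held 3 CCAAT boxes, 1 TATA box and 1 octamer. These are matches of letters and not sites of measured binding.

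Histone H2A pairs with H2B in the nucleosome, and 7 of the 12 H2A members were tested. H2AC6 (chr6:26124145-26139116, plus strand) was measured at 5.89, 9.11 and 4.88 CPM in siCtrl replicates 1 to 3 and at 8.20, 13.3 and 9.64 CPM in siMED12 replicates 1 to 3. The groups overlapped, since siCtrl replicate 2 was above siMED12 replicate 1, but siMED12 was higher by 39.2%, 45.7% and 97.7% within replicate numbers. Its log2 fold change was 0.65 (SE 0.29, adjusted p = 0.327) without and 0.66 (SE 0.15, adjusted p = 5.00e-04) with the block, and it was called in all 7 blocked alternatives, with adjusted p from 1.26e-04 to 0.0139. Without the block adjusted p ran from 0.243 to 0.683 over 13 alternatives.

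H2AC25, the member with the most counts, was lower in siMED12 in each pair without being called. It was at 16.0, 20.4 and 23.5 CPM with siCtrl and at 12.9, 18.5 and 21.1 CPM with siMED12. The groups overlapped, and the pair differences were -19.1%, -9.28% and -10.3%. No other tested member was lower in all 3 pairs, and 8 were higher in all 3. The share of all genes with such pair patterns was not computed, so that these counts are a description only. The log2 fold change of -0.20 (SE 0.10) in the blocked fit was not called (adjusted p = 0.128).

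H2AC18 and H2AC19 hold nearly the same sequence, as 100% and 99.8% of their 50-base stretches occur in another gene, so that the split of reads between them is uncertain. H2AC18 was at 0.416, 0.886 and 0.549 CPM in siCtrl, against 0.950, 0.935 and 1.13 CPM in siMED12, without overlap, and its log2 fold change was 0.72 (SE 0.47, adjusted p = 0.257, blocked fit). Per kb of exon H2AC19 was at 15.4 CPM and H2AC18 at 1.52 CPM. H2AC19 had a log2 fold change of 0.15 (SE 0.14, adjusted p = 0.454, blocked fit). H2AC13, which shares 63.5% of its stretches with another gene, had 0.72 (SE 0.42, adjusted p = 0.200, blocked fit). Its pair differences were -22.8%, 212% and 114% in replicates 1 to 3. H2AC20 and H2AC11 were not called either.

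Of the 13 H2B members 10 were tested, and none was called in the fit without or with the block. H2BC21 was at 13.7, 17.3 and 16.9 CPM under siCtrl and 14.8, 18.1 and 18.8 CPM under siMED12. It was higher in all 3 pairs, by 4.24% to 11.2%, with overlapping groups and a log2 fold change of 0.11 (SE 0.10, adjusted p = 0.473, blocked fit). H2BC12 was at 13.03, 17.9 and 10.1 CPM with siCtrl and 13.9, 16.9 and 12.3 CPM with siMED12, which is a spread within each group wider than the difference between them. Its log2 fold change was 0.09 (SE 0.12, adjusted p = 0.607, blocked fit), and 57.2% of its 50-base stretches occur in another gene. H2BC26 was at 2.32, 2.02 and 1.77 CPM in siCtrl, against 0.891, 0.760 and 1.88 CPM in siMED12, with overlap through siMED12 replicate 3 alone. Its log2 fold change of -0.84 (SE 0.35) had an adjusted p of 0.0639 in the blocked fit and of 0.0498 when all 24212 genes with at least 10 counts were kept. H2BC18 (-0.76, SE 0.45, adjusted p = 0.205), H2BC5 (-0.35, SE 0.28, adjusted p = 0.364) and H2BC15 (-0.33, SE 0.29, adjusted p = 0.424) had negative log2 fold changes that were not called in the blocked edgeR fit.

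Several H2A and H2B genes lie head to head and start within 500 bases of each other, and 8 such pairs had both genes among the members. H2AC6 and H2BC4 are 219 bases apart, and the H2AC6 window printed above also spans the region upstream of H2BC4. H2BC4 was at 1.43, 1.01 and 0.975 CPM under siCtrl and 1.54, 2.57 and 1.38 CPM under siMED12, and its log2 fold change of 0.66 (SE 0.35, adjusted p = 0.158) had nearly the value of H2AC6 (0.66, SE 0.15) in the blocked fit, but with a wider error and no call. Part of H2BC4 is also covered by genes on the opposite strand (30.9% of its exon bases). H2AC25 and H2BC26, 230 bases apart, both had negative values (-0.20 and -0.84). H2AC20 and H2BC21 (-0.33 and 0.11) and H2AC11 and H2BC11 (0.04 and -0.08) had values of opposite sign. The 2 genes of a pair could differ widely in level per length: H2AC12 was at 0.355 CPM per kb beside H2BC12 at 28.3, and H2BC26 was at 0.321 CPM per kb beside H2AC25 at 10.1.

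Of the 10 genes for histone H4, the most conserved core histone, 4 were tested and none was called with all libraries in the fit. H4C14 was at 8.15, 8.22 and 8.47 CPM with siCtrl and at 5.64, 9.30 and 6.13 CPM with siMED12. The siMED12 libraries numbered 1 and 3 were below all siCtrl libraries and that numbered 2 was above, and the log2 fold change was -0.26 (SE 0.16, adjusted p = 0.222, blocked fit). H4C14 and its near copy H4C15 share 97.5% and 100% of their stretches with another gene, and H4C15 had a log2 fold change of 0.63 (SE 0.49, adjusted p = 0.351, blocked fit). H4C8 was at 4.46, 5.00 and 4.02 CPM in siCtrl, against 2.08, 3.74 and 4.13 CPM in siMED12. It was lower in pairs 1 and 2 and higher by 2.69% in pair 3, with a log2 fold change of -0.46 (SE 0.22, adjusted p = 0.100, blocked fit). H4C14 was called lower when replicate 2 was left out of the blocked fit (adjusted p = 0.0258, beside 14.5% of all genes), and H4C8 and H2BC26 were called lower when replicate 3 was left out (adjusted p = 0.0242 and 0.0146, beside 14.4% of all genes).

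Of the linker histones, H1-2 alone was tested. It was at 8.39, 10.5 and 9.02 CPM under siCtrl and 9.86, 11.5 and 9.20 CPM under siMED12. Each siMED12 library was above the siCtrl library of its number, by 1.99% to 17.5%, while the groups overlapped, and the log2 fold change was 0.13 (SE 0.13, adjusted p = 0.485, blocked fit). H1-4 with 74 counts and H1-5 with 26 counts were not tested, and H1-1 and H1-3 were at 0.

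**Figure D4:**
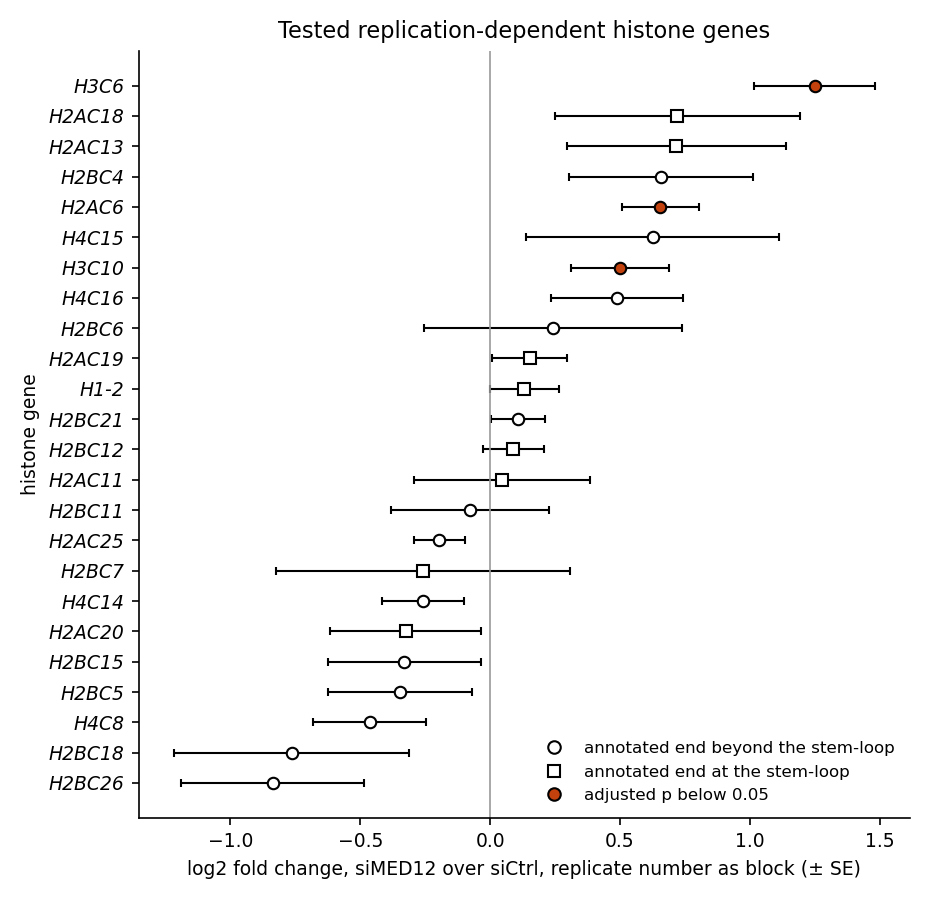
Log2 fold change of siMED12 over siCtrl (horizontal axis, ± SE) of the 24 tested members in the blocked fit. Filled symbols are H3C6, H2AC6 and H3C10, the 3 members with an adjusted p below 0.05, and values run from -0.84 (H2BC26) to 1.25 (H3C6) with members of both annotated ends on either side of 0.

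Members with an extended annotated end had a summed level of 76.0 ± 5.19 CPM in siCtrl and 80.2 ± 9.78 CPM in siMED12 (SD, n = 3 per group). The mean was 5.46% higher, with pair differences of -0.75%, 11.4% and 4.93%. Members that end at the stem-loop were at 44.1 ± 4.75 and 46.7 ± 2.80 CPM. Their mean was 5.87% higher, with pair differences of 7.30%, 0.82% and 10.6%. In both sets of members the siCtrl and siMED12 libraries overlapped. The 3 members called higher all had an extended end (3 of 16 tested, beside 17.1% of all genes), and none of the 8 tested members that end at the stem-loop was called, in which the median log2 fold change was 0.11 against 0.01 in the 16 (blocked fit). No difference between these groups of members was tested.

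The replacement histone genes are mostly not confined to S phase and mostly have polyadenylated mRNAs, and 11 of them were tested. None was called without the block, where 3 were lower at an unadjusted p below 0.05, beside 1419 of all 17901 genes tested (edgeR). With the block 3 were called lower and 3 higher, beside 16.2% and 17.1% of all genes (edgeR). DESeq2's Wald test without the block called 1 lower, and its calls over all genes are given in the last section. H2AZ1, an H2A variant found at promoters, fell from 705 ± 55.6 to 488 ± 16.9 CPM (SD, n = 3 per group), with a log2 fold change of -0.53 (adjusted p = 1.81e-14 with the block, 0.0537 without, edgeR). H2AX, which marks DNA breaks when phosphorylated and whose gene also has the stem-loop, fell from 360 ± 24.4 to 280 ± 29.7 CPM (log2 fold change -0.37, adjusted p = 2.02e-09 with the block, 0.153 without, edgeR). In both genes every siMED12 library was below every siCtrl library. H3-3A and H3-3B, which encode H3.3, the H3 form deposited outside replication, were higher (0.12, adjusted p = 0.0350, and 0.22, adjusted p = 1.12e-05, blocked edgeR fit), and so was H2AZ2 at 0.18. H1-10 was not called (-0.09, adjusted p = 0.0851, blocked edgeR fit).

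Genes that make or process histone mRNA were mostly not called. Of 23 tested, 0 were called without the block. In that fit 1 was lower at an unadjusted p below 0.05, beside 1419 of all 17901 genes tested (edgeR). With the block 4 were called lower and 0 higher, beside 16.2% and 17.1% of all genes (edgeR). The share called lower was thus near the background. DESeq2's Wald test called 0. LSM10, a protein of the U7 snRNP, was lower (-0.43, adjusted p = 0.00102), and so were ZNF473, which acts with the U7 snRNP (-0.30, adjusted p = 0.00230), SLBP, which binds the stem-loop (-0.17, adjusted p = 0.00542), and CDK2 (-0.14, adjusted p = 0.0122), all as log2 fold changes in the blocked edgeR fit. SLBP was at 161, 185 and 159 CPM with siCtrl and at 149, 147 and 153 CPM with siMED12, without overlap. NPAT, CASP8AP2 and LSM11 had log2 fold changes of 0.07, 0.03 and -0.09 and were not called. Of 23 histone chaperone genes tested, 4 were called higher and 4 lower with the block, near the background of 17.1% and 16.2% of all genes. Without it 0 were called in edgeR and 0 in DESeq2's Wald test. At an unadjusted p below 0.05, 2 were lower, beside 1419 of all 17901 genes tested (edgeR without the block).

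Of 35 tested DNA replication genes, which like the histone genes are used in S phase, 25 were called lower in the blocked fit, beside 16.2% of all genes, and 1, POLE, higher, beside 17.1%. Without the block 0 of 35 were called. At an unadjusted p below 0.05, 12 were lower, beside 1419 of all 17901 genes tested (edgeR without the block). DESeq2's Wald test called 4 lower, and its calls over all genes are given in the last section. Their median log2 fold change was -0.20, against 0.10 in the tested histone members and 0.02 over all genes. PCNA, the sliding clamp of the replication fork, fell by 29.3%, 32.9% and 25.0% in pairs 1 to 3 (adjusted p = 2.40e-12 with the block, 0.0515 without, edgeR), in which the histone sum gained 2.28%, 7.36% and 6.85%. CCNE2, a cyclin of the start of S phase, had a log2 fold change of -0.10 (adjusted p = 0.317, blocked edgeR fit). The 23 other tested genes that lie between histone members at 6p22, among them the linker histone pseudogene H1-12P and the gene that overlaps H3C4 and H2AC7, centred on a log2 fold change of 0.06 (median), with 2 called higher and 2 lower in the blocked fit. The 3 tested at 1q21 had a median of 0.07 and no call.

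**Figure D5:**
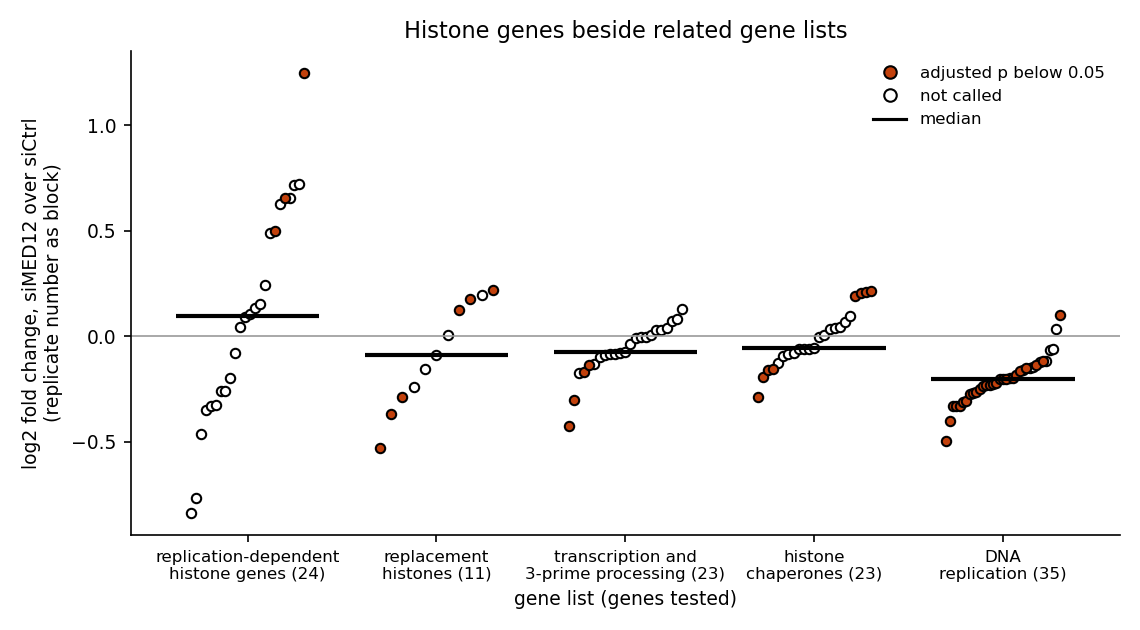
Log2 fold change of siMED12 over siCtrl (vertical axis, replicate number as block) of each tested gene in 5 lists, with filled circles for an adjusted p below 0.05 and a line at each median. Histone members spread from -0.84 to 1.25 around a median of 0.10 with 3 filled circles, and the replication list lies mostly below 0 (median -0.20) with 26 filled circles of 35.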

How the data were processed

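Poly(A) RNA of 6 libraries was captured, prepared strand-specifically and sequenced by a service provider. According to the labels and the methods, the authors aligned and counted reads with Rsubread on GRCh38 with a Gencode annotation. The deposited values are counts of reads per gene without normalization. The use of strand and of reads matching several places was not given in the sources used here, so that counts of near-identical or overlapping histone genes are uncertain. The deposited log2 CPM values were used in 1 alternative and were recomputed from the counts to within 4.96e-09.

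Counts were tested in R 4.3.3 with edgeR 4.0.16 (expression filter, TMM, quasi-likelihood F-test, two-sided, Benjamini-Hochberg over 17901 genes, threshold 0.05), with treatment alone in the model, since the methods name no block for the test. The study mentions a batch-corrected heatmap of 22Rv1 cells and names no batch in the sources used here. The scripts were tested on simulated data. Replicate numbers were taken to pair libraries, because deviations from group means correlated at 0.532, 0.373 and 0.643 within replicate numbers. Across replicate numbers the values were -0.460 to -0.0233. These follow in part from the values within numbers, since deviations from a group mean cancel out within the group. No 2 libraries of a group were duplicates (chi-square per degree of freedom 10.3 or more). The methods call the replicates biological, and what a shared number stands for was not given in the sources used here. Alternatives used DESeq2 1.42.0 and limma 3.58.1. Transcript ends, stem-loops, exon overlaps and 50-base stretches shared between genes came from Gencode 44 and the GRCh38 genome, matched by gene ID (68 of 68 rows, 67 with the same version). Levels in CPM per kb were divided by merged exon length.

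Named members were those with a mean of at least 10 CPM, the most abundant of each class, the 5 largest increases and 5 largest decreases in the blocked fit, members called without the block, and members just inside or outside 10 counts. Other members are named to complete a class, a head-to-head pair or the rows at 0, after their values were seen. Members, lists, tests and rules were chosen with earlier results of these data known, and no set test was made. The values of 1 gene of the replacement histone list are not reported here.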

Additional observations from a re-analysis of the deposited data

How the results depend on the processing

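Fold changes of histone genes were limited by depth, since 23 of 47 members were too low to be tested and the others had wider errors than other genes. Of 318 values of 16 named members under the alternatives, 291 kept their direction and their side of the threshold, 24 newly passed it and 3 changed sign without a call. These were H2BC21, from -0.013 (without siCtrl replicate 1) to 0.19 when 1 library was left out, and H2BC12, from -0.11 (without siCtrl replicate 3) and -0.08 (without siMED12 replicate 2) to 0.32. Of 6 results that answer a comparison, 60 of 113 alternative values stayed the same. The cause was not tested where a value moved.

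Over all genes, 27 were called higher and 74 lower. With the replicate block there were 3058 and 2908, with the replicate block and library size only 3807 and 2413, with the replicate block and DESeq2 size factors 2960 and 3069, and with the replicate block and no filter beyond 10 counts 3023 and 2882. The blocked fits without replicate 1, 2 and 3 gave 2070, 2199 and 2375 higher and 2578, 2654 and 2579 lower. DESeq2's Wald test called 331 higher and 493 lower. Without the block, library size only gave 49 lower, a mean of at least 1 CPM gave 118 lower, and a threshold of 0.01 gave 0 and 0. Leaving out 1 library gave 0 to 8 higher and 0 to 37 lower.

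Of the histone members, 0 were called without the block. The replicate block called 3 higher, also with library size only, with DESeq2 size factors and with no filter beyond 10 counts, where 1 was lower. Blocked fits without replicate 1, 2 and 3 called 2, 2 and 3 higher and 0, 1 and 2 lower, and DESeq2's Wald test called 1 higher. The summed level was higher by 8.69% with library size only and by 9.19% without H2AC25, and leaving out 1 library gave 0.669% to 10.6%. MED12 had log2 fold changes of -1.90 to -1.45 when 1 library was left out, and it did not pass the threshold without siCtrl replicate 1 or 2 or without siMED12 replicate 1 or 2 (adjusted p 0.0818 to 0.186). In the lists, H2AZ1 and PCNA, at adjusted p of 0.0537 and 0.0515 without the block, were just above the threshold of 0.05.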
